A study of Mus musculus with 10 samples.

Results

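Tuft cells are rare chemosensory cells of the gastric and intestinal lining, and 10 genes that mark them were followed across 10 mouse gastric tumours. The 10 genes are Dclk1, Trpm5, Pou2f3, Il25, Gnat3, Gfi1b, Alox5, Chat, Avil and Sh2d6, chosen by symbol, and all 10 were found among the 56748 genes of the deposited table. The inflamed group was 5 tumours of Tff1-CreERT2;Apcfl/fl;Trp53fl/fl mice, in which a tamoxifen-dependent Cre under the pit cell gene Tff1 acts on floxed Apc and Trp53. The desert group was 5 orthotopic allografts in the stomach with a genotype given as wild type. Whether that genotype is the host's or the graft's, which alterations the grafted cells carry and whether tumours came from separate mice or clones are points not given in the sources used here, and the protocol text speaks of 6 tumours where the series holds 10. Tumour type, genotype and tumour model cannot be told apart, no batch was given, and p-values measure the spread between these samples only.

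Tuft cells sense luminal compounds through a taste-like cascade in which a receptor acts through a G protein (Gnat3 encodes its alpha subunit, gustducin) and phospholipase C to release calcium, which opens the cation channel TRPM5. The transcription factor POU2F3 is required for their formation. In the mouse gut they are the main epithelial source of interleukin-25 and release cysteinyl leukotrienes and acetylcholine, with which they drive group 2 innate lymphoid cells and, in the stomach, signal to nerves and neighbouring epithelium. In bulk tissue, fewer cells of a type and less RNA per cell cannot be told apart.

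Expression was deposited as FPKM, reads scaled by gene length and by a factor per library, so levels of different genes can be set side by side. Each library held 14148147 to 16951640 reads in genes, which were recovered from the steps of the FPKM values. Of 6 epithelial markers 4 (Krt8, Krt19, Cldn7 and Cdh1) were called higher in inflamed tumours. Epcam, which did not pass, averaged 368 ± 35.6 FPKM in inflamed tumours, against 305 ± 77.3 FPKM in desert tumours (SD, n = 5 each, limma adjusted p = 0.124, and 0.0107 to 0.998 over the alternatives). Of 16750 genes tested with limma on log2(FPKM + 1), 31% were higher and 31.2% lower in inflamed tumours at an adjusted p under 0.05, which is 5197 and 5221 genes (3769 and 6989 after rescaling to TPM). Calls were therefore common, and every inflamed tumour lay above every desert tumour in 15.2% of all genes with a value above 0 in any library and in 24.4% of tested genes. Genes were tested where their mean over the 10 tumours reached 0.5 FPKM.

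Of the 10 tuft cell genes, 8 were higher in every inflamed tumour than in any desert tumour, against 15.2% of all genes above 0. In desert tumours Trpm5, Dclk1, Alox5 and Pou2f3 were near 0.2 FPKM on average and Gnat3 was at a single read, whereas Avil and Sh2d6 stayed well expressed. All 6 genes that reached the test were called higher in inflamed tumours, against 31% of tested genes. Among these 6, Trpm5, Dclk1, Alox5 and Pou2f3 had a desert mean below 0.5 FPKM and reached the test through the inflamed tumours, so that count is a description. Il25, Gnat3, Gfi1b and Chat lay below the filter and are given by their values, their reads and an exact permutation test per gene. With no filter, 9 of the 10 genes, all but Il25, were called higher, against 18.1% of the 34466 genes with a value above 0.

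**Figure D1:**
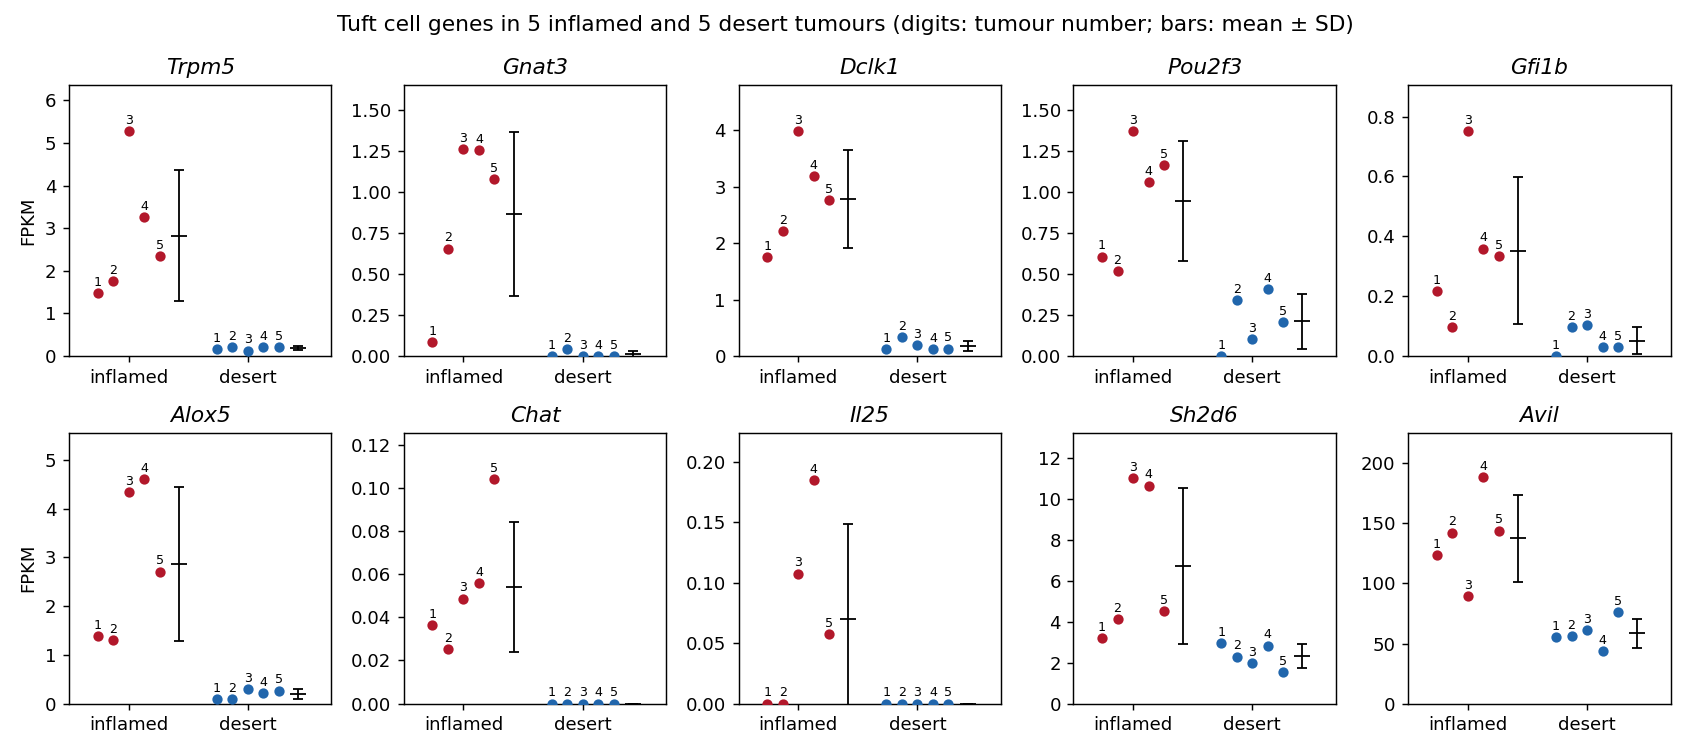
FPKM of the 10 tuft cell genes (vertical axes, a scale of its own for each gene) in the 5 inflamed and 5 desert tumours, with a point per tumour labelled by its number and the mean ± SD beside each group. Trpm5 lies between 1.48 and 5.27 FPKM in inflamed tumours and does not exceed 0.214 FPKM in desert tumours, whereas Avil reaches 43.6 to 76.5 FPKM in desert tumours.

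Pou2f3 and Gfi1b encode transcription factors. Pou2f3 (ENSMUSG00000032015, chromosome 9, 43035234 to 43121666 in the deposited table) measured 0.607, 0.519, 1.37, 1.06 and 1.17 FPKM in inflamed tumours 1 to 5, against 0, 0.343, 0.101, 0.409 and 0.205 FPKM in desert tumours 1 to 5. Every inflamed tumour was above every desert tumour, but the gap between inflamed tumour 2 and desert tumour 4 was small. The log2 difference was 0.67 (SE 0.16, limma adjusted p = 0.00333), and the ratio of the group means was 4.47. These values rest on 27 to 74 reads per inflamed library and 0 to 24 reads per desert library. In desert tumours Pou2f3 reads were found in 4 of 5 libraries.

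Gfi1b (ENSMUSG00000026815, chromosome 2, 28499462 to 28511994) encodes a zinc-finger repressor of blood lineages that is also a tuft cell marker. It reached 0.217, 0.0973, 0.750, 0.359 and 0.334 FPKM in inflamed tumours 1 to 5, against 0, 0.0965, 0.102, 0.0287 and 0.0288 FPKM in desert tumours 1 to 5. The groups overlapped, since inflamed tumour 2 lay below desert tumour 3. The difference on log2(FPKM + 1) was 0.35 (exact two-sided permutation test, p = 0.0159, 5 against 5 tumours, the smallest p possible being 0.00794), from 54 reads over the inflamed and 8 over the desert libraries. Of 9 megakaryocyte and erythroid markers 8 were tested, of which Pf4 and Ppbp rose, Klf1 and Alas2 fell and 4 did not pass. These counts are a description, beside 31% of tested genes called higher and 31.2% called lower. Ppbp had a desert mean below 0.5 FPKM and reached the test through the inflamed tumours. Ppbp, Hba-a1, Hbb-bs and Alas2 were highest in inflamed tumour 3, as Gfi1b was, and the other 5 in other inflamed tumours. Gata1, below the filter, was at no more than 0.175 FPKM in any inflamed tumour and 0.0255 FPKM in any desert tumour. The part of blood lineage cells in the Gfi1b values was not tested.

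Trpm5 and Gnat3 act in the taste cascade, and both were higher in every inflamed tumour than in any desert tumour. Trpm5 (ENSMUSG00000009246, chromosome 7, 142622890 to 142648379), the calcium-gated cation channel, showed 1.48, 1.76, 5.27, 3.27 and 2.34 FPKM in inflamed tumours 1 to 5, against 0.153, 0.212, 0.126, 0.214 and 0.206 FPKM in desert tumours 1 to 5. Inflamed tumour 3 stood highest, and the desert tumours lay close together. It averaged 2.82 ± 1.53 FPKM in inflamed tumours, against 0.182 ± 0.0400 FPKM in desert tumours (SD, n = 5 each), a ratio of 15.5, with a log2 difference of 1.61 (SE 0.22, limma adjusted p = 8.82e-05). The log2(FPKM + 1) scale understates such changes of low genes, which is why the ratio of means is given beside it. Tssc4 lies within the Trpm5 span on the other strand, with 16.5 ± 1.30 FPKM in inflamed tumours, against 19.6 ± 2.64 FPKM in desert tumours. Use of strand in the counting is not given in the sources used here, and the part of Tssc4 reads in the low desert values of Trpm5 was not tested.

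Gnat3 (ENSMUSG00000028777, chromosome 5, 18167547 to 18224832), which encodes gustducin, stood at 0.0834, 0.654, 1.26, 1.26 and 1.08 FPKM in inflamed tumours 1 to 5, against 0.0432 FPKM in desert tumour 2 and 0 in the other desert tumours. Inflamed tumour 1 was far below the other inflamed tumours and close to the desert level, with 2 reads against 15 to 30 in inflamed tumours 2 to 5. The desert value was 1 read. The read ratio of the groups was 95.6, with an exact 95% interval of 16.8 to 3815 that covers counting error only. The difference on log2(FPKM + 1) was 0.84 (exact two-sided permutation test, p = 0.00794, 5 against 5 tumours).

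The stretches of 250 bases before the start of Trpm5, Gnat3, Alox5 and Avil are shown because the first 3 genes rose together and Avil kept a pattern of its own among the inflamed tumours. They come from RefSeq with the build GRCm38.p6, each 5′ to 3′ on its gene's strand, and capitals mark ATGCAAA or its reverse complement TTTGCAT.
Trpm5 (chr7:143094643-143094892, minus strand): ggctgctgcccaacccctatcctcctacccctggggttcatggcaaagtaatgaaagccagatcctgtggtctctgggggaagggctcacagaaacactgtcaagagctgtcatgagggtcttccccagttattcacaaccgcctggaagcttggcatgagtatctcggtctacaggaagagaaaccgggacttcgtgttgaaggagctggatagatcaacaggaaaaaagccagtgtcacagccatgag
Gnat3 (chr5:17962320-17962569, plus strand): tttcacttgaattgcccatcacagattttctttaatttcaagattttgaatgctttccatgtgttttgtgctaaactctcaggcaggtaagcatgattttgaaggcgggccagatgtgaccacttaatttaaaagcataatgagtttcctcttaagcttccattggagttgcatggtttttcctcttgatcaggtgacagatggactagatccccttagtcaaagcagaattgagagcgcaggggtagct
Alox5 (chr6:116461179-116461428, minus strand): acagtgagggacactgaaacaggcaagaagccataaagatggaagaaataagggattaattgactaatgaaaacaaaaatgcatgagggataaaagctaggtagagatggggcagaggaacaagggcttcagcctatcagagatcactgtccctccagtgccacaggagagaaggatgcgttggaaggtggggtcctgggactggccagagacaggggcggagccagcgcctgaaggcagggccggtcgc
Avil (chr10:127000459-127000708, plus strand): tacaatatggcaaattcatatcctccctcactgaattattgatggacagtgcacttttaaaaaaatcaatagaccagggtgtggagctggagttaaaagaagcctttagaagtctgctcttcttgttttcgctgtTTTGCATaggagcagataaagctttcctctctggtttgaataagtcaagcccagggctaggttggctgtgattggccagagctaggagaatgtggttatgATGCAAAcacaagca
POU factors bind the octamer ATGCAAAT. Neither it nor its reverse complement ATTTGCAT was found in the 9 windows of 250 bases that the RefSeq table gave for 8 of the genes, and 1.60% of 32851 such windows held it. Its first 7 letters, a choice made after the windows were seen, occurred in the Avil window only, 115 and 15 bases before the start, and in 4.12% of all windows. These letters describe the windows and say nothing of binding. The gene positions of the deposited table and of GRCm38.p6 are on different coordinates: of 52125 shared gene IDs, 1537 had the same start in the GENCODE annotation of GRCm38, although the submitters' processing notes name mm10.

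Dclk1 (ENSMUSG00000027797, chromosome 3, 55149785 to 55446489), a doublecortin-like kinase used as a tuft cell marker in mice, measured 1.75, 2.21, 3.99, 3.19 and 2.76 FPKM in inflamed tumours 1 to 5, against 0.119, 0.339, 0.187, 0.127 and 0.131 FPKM in desert tumours 1 to 5. The lowest inflamed tumour was well above the highest desert tumour. The log2 difference was 1.65 (SE 0.16, limma adjusted p = 5.77e-06) and the ratio of means 15.4, with 471 to 1066 reads per inflamed library and 28 to 88 per desert library. Dclk1 is also a gene of neurons. Of 7 enteric neuron markers 4 were tested, of which Tubb3 and Ret rose, Uchl1 fell and Prph did not pass. Of all tested genes 31% were called higher and 31.2% lower, so these counts are a description. Tubb3 and Ret had a desert mean below 0.5 FPKM and reached the test through the inflamed tumours. Tubb3 averaged 3.93 FPKM in inflamed tumours, against 0.325 FPKM in desert tumours (limma adjusted p = 2.65e-05), and Ret averaged 1.11 FPKM in inflamed tumours, against 0.223 FPKM for the desert group (limma adjusted p = 0.000242). Ret, like Dclk1, was highest in inflamed tumour 3, and Tubb3 in inflamed tumour 1. Below the filter, Snap25 was highest in inflamed tumour 3 (0.985 FPKM), and Elavl4 was at no more than 0.195 FPKM in inflamed tumours and 0.00976 FPKM in desert tumours. The part of neurons in the Dclk1 values was not tested.

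Sh2d6 (ENSMUSG00000052631, chromosome 6, 72490624 to 72498690), which encodes an SH2 domain protein, reached 3.19, 4.14, 11.0, 10.7 and 4.52 FPKM in inflamed tumours 1 to 5, against 2.97, 2.30, 1.99, 2.83 and 1.53 FPKM in desert tumours 1 to 5. The groups did not overlap, but inflamed tumour 1 and desert tumour 1 lay close together. It averaged 6.71 ± 3.81 FPKM in inflamed tumours, against 2.32 ± 0.596 FPKM in desert tumours (SD, n = 5 each), with a log2 difference of 1.09 (SE 0.30, limma adjusted p = 0.00814). These values rest on 95 to 326 reads per inflamed library and 49 to 91 per desert library.

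Avil (ENSMUSG00000025432, chromosome 10, 126836578 to 126856863) encodes advillin, an actin-bundling protein of the villin family that is found in tuft cells and sensory neurons. It showed 124, 142, 89.4, 189 and 144 FPKM in inflamed tumours 1 to 5, against 55.1, 56.4, 61.1, 43.6 and 76.5 FPKM in desert tumours 1 to 5. The groups did not overlap, and both were far above every other gene of the set. The log2 difference was 1.20 (SE 0.20, limma adjusted p = 0.000314) and the ratio of means 2.35. Avil took 76.0% to 93.4% of the summed FPKM of the 10 genes in inflamed tumours and 91.9% to 97.0% in desert tumours, so that sum mainly follows Avil. Tsfm overlaps it on the other strand, with 7.08 ± 1.06 FPKM in inflamed tumours, against 10.3 ± 0.794 FPKM in desert tumours (SD, n = 5 each).

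**Figure D2:**
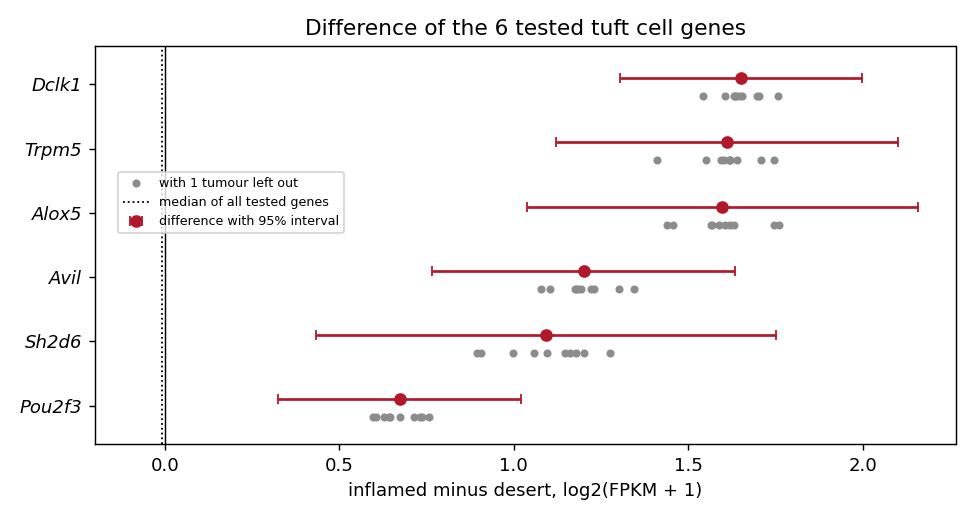
Inflamed minus desert difference on log2(FPKM + 1) (horizontal axis) of the 6 tested tuft cell genes, with the 95% interval in red, the values with 1 tumour left out in grey and a solid line at 0. All 6 lie above the dotted median of all tested genes (-0.0072), from 0.67 for Pou2f3 to 1.65 for Dclk1.

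Alox5, Chat and Il25 stand for what tuft cells release. Alox5 (ENSMUSG00000025701, chromosome 6, 116387038 to 116438139) encodes 5-lipoxygenase, the first enzyme of leukotriene synthesis, and stood at 1.38, 1.30, 4.35, 4.61 and 2.71 FPKM in inflamed tumours 1 to 5, against 0.0952, 0.0860, 0.303, 0.218 and 0.270 FPKM in desert tumours 1 to 5. All inflamed tumours were above all desert tumours, with tumours 3 and 4 highest. The log2 difference was 1.60 (SE 0.25, limma adjusted p = 0.000253) and the ratio of means 14.8. Neutrophils, macrophages and mast cells also express Alox5. The summed FPKM of 6 neutrophil markers was 171, 166, 159, 8.13 and 23.9 in inflamed tumours 1 to 5, against 0.931 to 1.83 in desert tumours. Of the 6, 5 were called higher, and all 5 had a desert mean below 0.5 FPKM and reached the test through the inflamed tumours. Inflamed tumours 1 and 2 were the highest in the neutrophil sum and the lowest in Alox5. The 7 mast cell markers summed to 92.4, 136, 104, 450 and 246 FPKM in inflamed tumours 1 to 5, against 4.96 to 10.3 FPKM in desert tumours. Inflamed tumour 4 was the highest in both the mast cell sum and Alox5. Inflamed tumour 3 was high in Alox5 (4.35 FPKM) but not in the mast cell sum (104 FPKM). Of the 7, 4 were called higher, 3 of which reached the test through the inflamed tumours. The 6 macrophage markers summed to 91.5 to 382 FPKM in inflamed tumours and 89.7 to 264 FPKM in desert tumours, with 1 of 6 called higher. The counts of called markers are a description, beside 31% of tested genes called higher. The part of neutrophils, mast cells and macrophages in the Alox5 difference was not tested.

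Chat (ENSMUSG00000021919, chromosome 14, 32130160 to 32187946), which encodes the enzyme that makes acetylcholine, measured 0.0362, 0.0252, 0.0486, 0.0559 and 0.104 FPKM in inflamed tumours 1 to 5, against 0 in all 5 desert tumours. These are 2 to 8 reads per inflamed library, 21 in all, against 0 reads in the desert group. With the desert group set to a floor of 3 reads and the inflamed reads taken as exact, Chat was 6.90-fold higher in inflamed tumours. The difference on log2(FPKM + 1) was 0.075 (exact two-sided permutation test, p = 0.00794, 5 against 5 tumours). The vesicular acetylcholine transporter gene Slc18a3 lies inside the Chat span on the same strand. It reached 0.0471 to 0.450 FPKM in inflamed tumours, against 0 in all desert tumours, so reads of the pair may be split between them, and the rule of the counting is not given in the sources used here. Slc5a7 of the cholinergic list, below the filter and chosen after its values were seen, was also at 0 in all desert tumours. It stood at 0.101, 0.0210, 0.334, 0.279 and 0 FPKM in inflamed tumours 1 to 5. The part of enteric neurons in the Chat values was not tested.

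Il25 (ENSMUSG00000040770, chromosome 14, 55170152 to 55173294), the cytokine gene, was read at 0, 0, 0.108, 0.185 and 0.0574 FPKM in inflamed tumours 1 to 5, against 0 in all desert tumours. The inflamed values are 6 reads in all, found in tumours 3, 4 and 5. The groups overlapped at 0, and the exact two-sided permutation test gave p = 0.167 (5 against 5 tumours, difference 0.095 on log2(FPKM + 1)), so no difference was detectable at this depth.

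In inflamed tumours the order of mean levels was Avil (138 FPKM), Sh2d6 (6.71), Alox5 (2.87), Trpm5 (2.82), Dclk1 (2.78), Pou2f3 (0.945), Gnat3 (0.866), Gfi1b (0.351), Il25 (0.0700) and Chat (0.0540). Alox5, Trpm5 and Dclk1 did not differ beyond their spread over tumours, and neither did Pou2f3 and Gnat3 or Il25 and Chat. Avil was above Sh2d6, and Dclk1 above Pou2f3, with no overlap of their ranges, and Sh2d6 was above Alox5 in all 5 tumours although their ranges overlapped. In desert tumours Avil (58.5 FPKM) and Sh2d6 (2.32 FPKM) were each apart from the next gene in all 5 tumours, and Pou2f3 (0.211), Alox5 (0.194), Trpm5 (0.182) and Dclk1 (0.181) overlapped.

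The genes did not change in proportion. The FPKM ratio of Sh2d6 to Trpm5 was 2.15, 2.35, 2.09, 3.26 and 1.93 in inflamed tumours 1 to 5, against 19.4, 10.9, 15.7, 13.3 and 7.42 in desert tumours 1 to 5. The ratio of Avil to Trpm5 spanned 16.9 to 83.4 in inflamed tumours, against 204 to 484 in desert tumours. Neither ratio overlapped between groups, and the mean log2 ratios differed by -2.45 and -2.62. Both ratios were chosen after their values were seen and are given as a description with no test. Avil and Sh2d6 were thus present in desert tumours whose libraries together held 1 read of Gnat3 and 0 reads of Il25 and Chat.

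**Figure D3:**
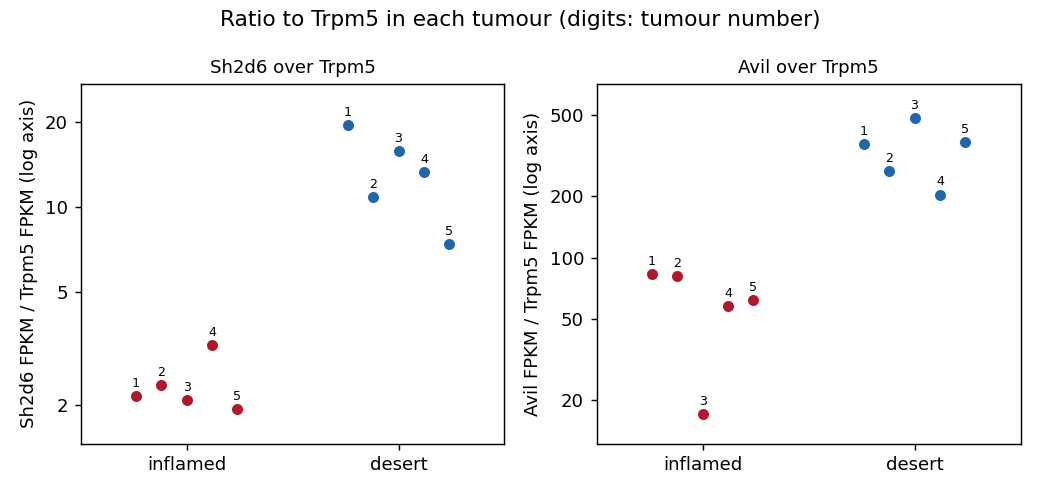
FPKM of Sh2d6 (left) and Avil (right) divided by the FPKM of Trpm5 in the same tumour, on log axes, with a point per tumour labelled by its number. Sh2d6 over Trpm5 is 1.93 to 3.26 in inflamed tumours and 7.42 to 19.4 in desert tumours.

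Among the inflamed tumours most of the genes had a similar order. Tumours 3 and 4 were the 2 highest inflamed tumours in 7 of the 10 genes, an order that 9.95% of the 16750 tested genes had. Of these 7, Il25 rests on 2, 3 and 1 reads in tumours 3, 4 and 5. Gfi1b had 10 reads in each of tumours 4 and 5, so only the library factor separated them. The shares of this paragraph are of genes above the filter, whereas Il25, Gnat3, Gfi1b and Chat lay below it with few reads. Tumours 1 and 2 were the 2 lowest in 9 of the 10 (Il25 was at 0 in both), against 10.5% of tested genes, Avil being the exception with its lowest value in tumour 3. Tumour 3 was the highest in 6 of the 10, against 15.3% of tested genes, and tumour 3 or 4 in 9 of the 10, against 42.5%. The highest inflamed value was at least 2 times the lowest in the 9 genes above 0 in all inflamed tumours, against 33.9% of tested genes. Among these 9, Chat, Gnat3 and Gfi1b had lowest values of only 2, 2 and 3 reads. Tumour 3 over tumour 1 was 3.56 for Trpm5, 3.46 for Sh2d6, 3.45 for Gfi1b, 3.14 for Alox5, 2.28 for Dclk1, 2.26 for Pou2f3, 15.1 for Gnat3, 1.34 for Chat and 0.723 for Avil. Summed without Avil, the other 9 genes were at 8.75, 10.7, 28.2, 24.6 and 15.1 FPKM in inflamed tumours 1 to 5, against 2.37 to 3.83 FPKM in desert tumours. Among 42 genes of the other tuft cell lists, tumours 3 and 4 were the 2 highest in 9, against 9.95% of tested genes. Tumours 1 and 2 were the 2 lowest in 12 of the 42, against 10.5%, and tumour 3 the highest in 10, against 15.3%. Most of the 42 thus did not have this order, although it was more common among them than among tested genes. These counts describe 5 tumours in which the genes share libraries, and no test was made of them. The pairs and single tumours counted here were picked after the values of the 10 genes were seen. That choice can widen the gap between the 10 genes and the shares of tested genes.

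Markers of other cells differed in their order over the inflamed tumours, and the squamous and epithelial sums shared features of the tuft cell genes. The 6 enteroendocrine markers summed to 208 FPKM in tumour 3 and 42.8 to 86.7 FPKM in the other inflamed tumours, against 1.72 to 3.93 FPKM in desert tumours. All 5 tested markers of this list were called higher, against 31% of tested genes. Of these, 4 had a desert mean below 0.5 FPKM and reached the test through the inflamed tumours, so that count is a description. The enteroendocrine sum shared the high value in tumour 3 but not that in tumour 4. The 6 squamous markers summed to 265 FPKM in tumour 4 and to at most 8.98 FPKM in the other inflamed tumours, against at most 0.320 FPKM in desert tumours. Krt5 and Krt6a were at 0 in all of the desert tumours. Of 4 tested squamous markers 1 was called higher, Krt14, which reached the test through the inflamed tumours. Tumours 3 and 4 were the highest and tumours 1 and 2 the lowest for the squamous sum, as for most tuft cell genes, although tumour 4 stood far above tumour 3. Pou2f3 is also a gene of squamous epithelium, and its level in inflamed tumour 4 (1.06 FPKM) was below that in tumours 3 and 5; the part of squamous cells in the Pou2f3 values was not tested. The 6 epithelial markers summed to 3317 to 6318 FPKM in inflamed tumours, against 1523 to 2227 FPKM in desert tumours, with 4 of 6 called higher. Their sum was lowest in inflamed tumours 1 and 2, as most tuft cell genes were. Unlike most tuft cell genes, it was highest in tumours 4 and 5. The part of epithelial cells in the group differences was not tested. T cell markers summed to 7.56 to 24.9 FPKM in inflamed tumours, lowest in tumour 4, against 0.866 to 1.62 FPKM in desert tumours. Fibroblast markers summed to 72.1 to 208 FPKM in inflamed tumours and 49.2 to 95.5 FPKM in desert tumours. Enteric glia markers, lowest in inflamed tumour 5, summed to 1.45 to 6.84 FPKM in inflamed and 1.77 to 2.96 FPKM in desert tumours. Enteric neuron markers summed to 6.93 to 11.1 FPKM in inflamed and 14.2 to 21.0 FPKM in desert tumours, there mainly from Uchl1. Megakaryocyte and erythroid markers summed to 10.3 to 74.9 FPKM in inflamed and 35.7 to 143 FPKM in desert tumours.

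**Figure D4:**
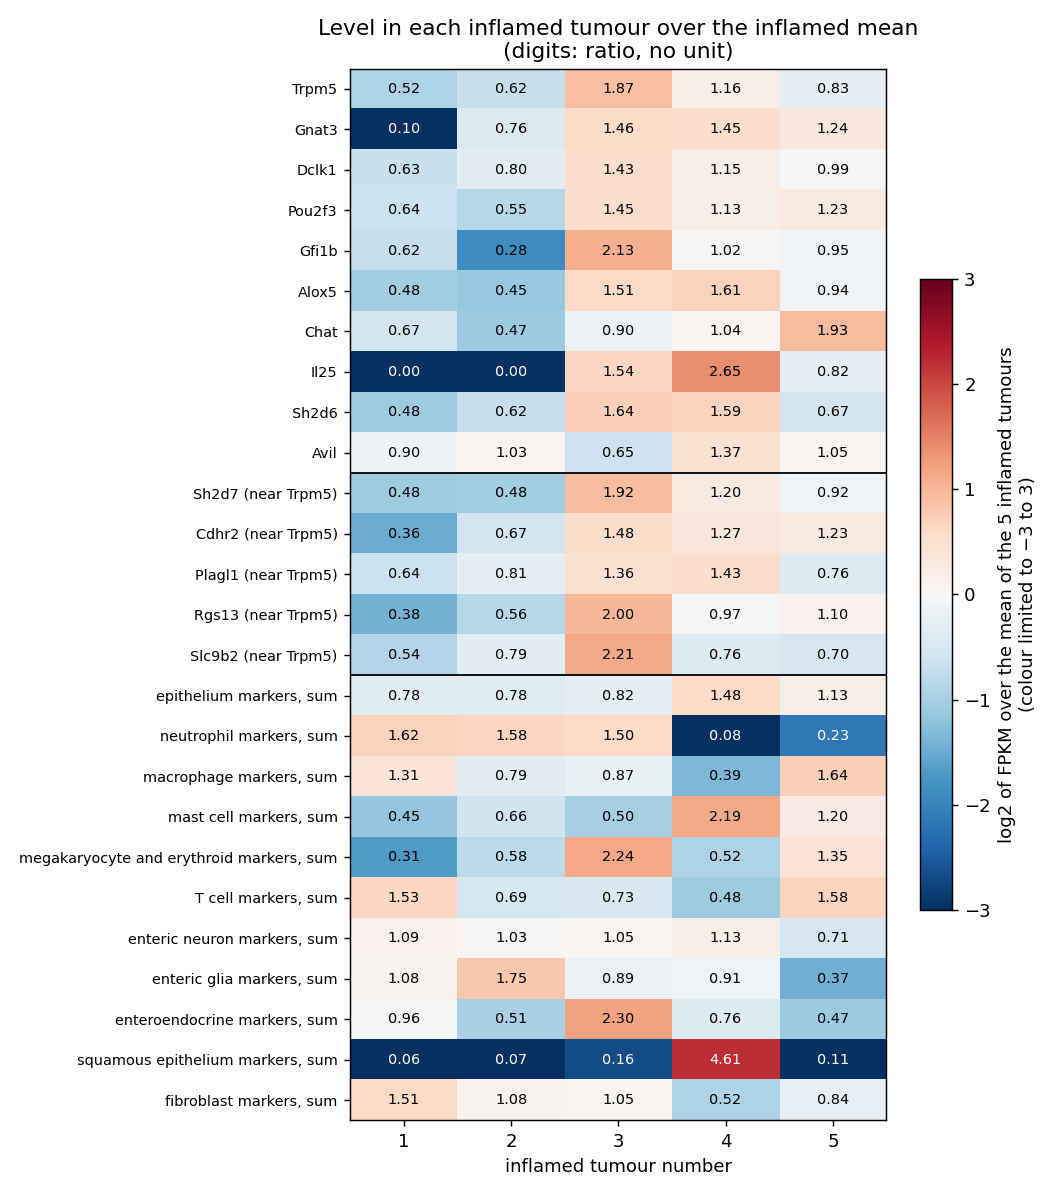
Level of each gene or marker sum in inflamed tumours 1 to 5 (columns) divided by its mean over the 5 inflamed tumours, written in the cells and coloured as log2. The top block holds the 10 tuft cell genes, the middle block the 5 genes nearest to Trpm5 in profile, and the bottom block the sums of the marker lists. Most tuft cell genes are low in tumours 1 and 2 and high in tumours 3 and 4, and among the marker sums the squamous one, far above the others in tumour 4, has that order too, and the epithelial one is also lowest in tumours 1 and 2.

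The genes whose profile over the 10 tumours was most like that of Trpm5 were found by the root mean square difference of centred log2(FPKM + 1) values. Leaving out the 10 genes, the nearest was Sh2d7 (0.080), an SH2 domain gene known from tuft cells, at 1.16, 1.17, 4.62, 2.89 and 2.23 FPKM in inflamed tumours 1 to 5, against at most 0.0214 FPKM in desert tumours. Next were the microvillar cadherin gene Cdhr2 (0.20), the zinc-finger gene Plagl1 (0.21), the G protein regulator gene Rgs13 (0.22) and the transporter gene Slc9b2 (0.23). Rgs13 showed 1.24, 1.83, 6.57, 3.18 and 3.62 FPKM in inflamed tumours 1 to 5, against 0 to 0.159 FPKM in desert tumours. Within the set, Dclk1 (0.16) and Alox5 (0.20) were closer to Trpm5 than all but 1 and 2 of the tested genes, whereas 174 genes were closer than Sh2d6 (0.36), 1199 closer than Pou2f3 (0.52) and 1619 closer than Avil (0.56). This measure grows with any gap in the size of a change as well as in its order over tumours, and all of these profiles share the group difference.

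Further tuft cell genes were taken from lists made up with earlier results of these data known, and their counts are read against the 31% of tested genes higher and 31.2% lower. Of 12 chemosensory signalling genes 5 were tested and all 5 rose (median log2 difference 1.59, against -0.0072 over all tested genes). Of these, Plcb2 and Rgs13 had a desert mean below the filter and reached the test through the inflamed tumours, so their rise was partly set by the filter. The same holds for genes of the lists that follow, and each such count is a description. The inositol trisphosphate receptor genes Itpr2 and Itpr3 averaged 11.6 ± 3.61 and 51.0 ± 11.0 FPKM in inflamed tumours, against 0.541 ± 0.252 and 16.4 ± 3.53 FPKM for the desert group (SD, n = 5 each). Rgs13 rose by 1.90 on the log2 scale (SE 0.28, limma adjusted p = 0.000135). The channel gene Trpm4, a relative of Trpm5, averaged 10.4 ± 1.95 FPKM in inflamed tumours, against 6.56 ± 1.41 FPKM in desert tumours (SD, n = 5 each, limma adjusted p = 0.00476). The receptor genes Tas1r1, Tas1r2, Tas1r3, Sucnr1 and Ffar3 and the G protein subunit genes Gng13 and Gnb3 lay below the filter.

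Of 7 eicosanoid synthesis genes 6 rose and 1 did not pass (median 1.46). Of the 6, Ltc4s, Hpgds, Pla2g4a and Ptgs2 reached the test through the inflamed tumours, and of the 3 genes above the filter in both groups 2 rose. The phospholipase gene Pla2g4a, which frees arachidonic acid, averaged 10.8 ± 1.59 FPKM in inflamed tumours, against 0.233 ± 0.0991 FPKM in desert tumours (SD, n = 5 each, limma adjusted p = 4.61e-09). The cyclooxygenase gene Ptgs2 averaged 8.75 ± 5.22 FPKM in inflamed tumours, against 0.155 ± 0.121 FPKM in desert tumours (SD, n = 5 each). Ptgs1, the cyclooxygenase gene of mouse tuft cells, was at 11.8 ± 5.47 FPKM in inflamed tumours, against 3.43 ± 1.54 FPKM for the desert group (SD, n = 5 each), and its highest value was in inflamed tumour 1, where Alox5 was low. Lta4h, which makes leukotriene B4, did not pass, at 12.4 ± 0.933 FPKM in inflamed tumours and 15.3 ± 2.61 FPKM for the desert group (SD, n = 5 each, limma adjusted p = 0.0609). It was called lower when desert tumour 4 was left out (-0.38, limma adjusted p = 0.00273) and after rescaling to TPM (-0.58, limma adjusted p = 0.00279). Quantile normalization (limma adjusted p = 0.0381) and voom on recovered reads (limma adjusted p = 0.0263) also gave this call. The adjusted p of Lta4h ranged between 0.00273 and 0.131 over all alternatives.

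Of 23 identity, structure and adaptor genes 20 were tested, of which 14 rose, 5 fell and 1 did not pass (median 1.07). Of the 14, 7 reached the test through the inflamed tumours (Spib, Siglecf, Bmx, Irag2, Nrgn, Sh2d7 and Chil1), and of the 13 genes above the filter in both groups 7 rose and 5 fell. The brush border gene Vil1, expressed in absorptive cells too, averaged 90.4 ± 22.4 FPKM in inflamed tumours, against 4.17 ± 1.74 FPKM in desert tumours (SD, n = 5 each, limma adjusted p = 3.40e-07). The G protein regulator gene Rgs2 averaged 10.8 ± 1.86 FPKM in inflamed tumours, against 0.711 ± 0.260 FPKM in desert tumours (SD, n = 5 each). The 5 that fell were Sox9, Cd24a, Il17rb, Fyb and Ptpn6. Sox9, a progenitor factor not limited to tuft cells, averaged 54.8 ± 7.15 FPKM in inflamed tumours, against 152 ± 12.7 FPKM in desert tumours (SD, n = 5 each, limma adjusted p = 5.79e-07). The surface protein gene Cd24a averaged 452 ± 46.9 FPKM in inflamed tumours, against 855 ± 91.9 FPKM in desert tumours (SD, n = 5 each). Kctd12, which did not pass, was called higher when desert tumour 1 was left out (1.09, limma adjusted p = 0.0360, with an adjusted p of up to 0.660 among the alternatives). Irag2, found under its older name Lrmp in the list, rose by 1.68 on the log2 scale (SE 0.25, limma adjusted p = 0.000139), and the homeobox gene Hmx3, below the filter, stood at 0.351, 0.326, 2.32, 0.992 and 0.419 FPKM in inflamed tumours 1 to 5, against at most 0.202 FPKM in desert tumours. Kctd12, Irag2 and Hmx3 were picked out after their values were seen.

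Of 10 cholinergic genes 7 were tested, of which 5 rose and 2 fell (median 0.39). Chrm2 and Chrm3 reached the test through the inflamed tumours, and of the 5 genes above the filter in both groups 3 rose and 2 fell. The muscarinic receptor gene Chrm3 averaged 3.59 ± 1.06 FPKM in inflamed tumours, against 0.108 ± 0.208 FPKM in desert tumours (SD, n = 5 each, limma adjusted p = 4.82e-06). Bche, which breaks down choline esters, averaged 4.25 ± 1.55 FPKM in inflamed tumours, against 19.9 ± 3.48 FPKM in desert tumours (SD, n = 5 each). Of the choline transporter-like genes, Slc44a2 fell by 0.56 on the log2 scale (SE 0.097, limma adjusted p = 0.000443) and Slc44a1 rose by 0.39 (SE 0.10, limma adjusted p = 0.00764). TPM scaling removed the call of Slc44a1 (0.10, limma adjusted p = 0.518), its adjusted p ranging between 0.00419 and 0.518 over all alternatives. The call of the muscarinic receptor gene Chrm1, named for this after its values were seen, was narrow (0.33, limma adjusted p = 0.0380) and was lost when inflamed tumour 1, 2, 3 or 4 or desert tumour 2, 3, 4 or 5 was left out (0.29 to 0.34, adjusted p up to 0.0873) and after rescaling to TPM (0.22, adjusted p = 0.308).

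Of the type 2 cytokine genes that act downstream of interleukin-25, Il4 averaged 0.881 FPKM in inflamed tumours, against 1.10 FPKM in desert tumours (limma adjusted p = 0.337). Il5, Il9 and Il13 were close to 0 and averaged 0.0461, 0.0228 and 0.0414 FPKM in inflamed tumours, against 0.0254, 0 and 0.0902 FPKM in desert tumours. The type 2 list of 19 genes is wider than these cytokines and holds genes not placed downstream of interleukin-25, such as Il33 and its receptor gene Il1rl1. Of the 19 genes 10 were tested, of which 7 rose, Il17rb fell and 2 did not pass (median 1.43). Il17rb is the same gene that is counted as fallen in the identity list. Il1rl1 and Cysltr2 reached the test through the inflamed tumours, and of the 8 genes above the filter in both groups 5 rose and 1 fell. Il17rb, which encodes the interleukin-25 receptor chain, measured 0.613, 0.672, 0.787, 1.08 and 0.692 FPKM in inflamed tumours 1 to 5, against 2.22, 2.25, 2.40, 1.89 and 2.18 FPKM in desert tumours 1 to 5. Every inflamed tumour was below every desert tumour, with a log2 difference of -0.85 (SE 0.10, limma adjusted p = 3.48e-05). Il17rb, Il4, Il5, Il9 and Il13 were picked out after their values were seen. The 2 genes with the largest differences of the list were Areg and Il1rl1. Areg, an epidermal growth factor family ligand, averaged 44.9 ± 12.9 FPKM in inflamed tumours, against 0.761 ± 0.818 FPKM in desert tumours (SD, n = 5 each, limma adjusted p = 1.78e-07). Il1rl1, which encodes the interleukin-33 receptor, averaged 13.5 ± 6.83 FPKM in inflamed tumours, against 0.210 ± 0.0564 FPKM in desert tumours (SD, n = 5 each), and Il33 itself 67.8 ± 26.2 FPKM in inflamed tumours, against 20.1 ± 12.6 FPKM in desert tumours (SD, n = 5 each, limma adjusted p = 0.00411).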

How the data were processed

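RNA of 5 inflamed and 5 desert mouse gastric tumours was sequenced, with 1 library per tumour, from total RNA extracted with TRIzol per the labels' protocols. The authors deposited FPKM values per gene in 1 table, reads being scaled for the length of the gene and the size of the library. The build mm10 is named in the submitters' processing notes; aligner, read counter, annotation release and strand setting are not given in the sources used here. FPKM times gene length gave whole multiples of 1 step per library (for 100% of values above 0, to a tolerance of 0.01), and these multiples were taken as reads; read-based intervals and the floor of 3 reads cover counting error only.

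Genes with a mean of at least 0.5 FPKM over the 10 tumours were compared on log2(FPKM + 1) using limma 3.58.1 under R 4.3.3 (moderated statistics, intensity trend, robust, two-sided, group as the only term, Benjamini-Hochberg over 16750 genes), and the procedure was tested on simulated data. Members below the filter had an exact two-sided permutation test each, in scipy 1.17.1. The 10 members and the lists were chosen with earlier results of these data known. All 10 members are named. From each further tuft cell or pathway list the text names up to 2 tested genes of largest difference and 2 of highest mean, and for Trpm5 the 5 nearest profiles, leaving out pseudogenes, predicted genes, antigen receptor segments and genes of ribosomal proteins. The alternatives were other pseudocounts, filters, scalings and moderation, voom on recovered reads, a replicate block and each tumour left out.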

Additional observations from a re-analysis of the deposited data

Results flagged for a closer look

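Gnat3 in desert tumours was at 0.0432 FPKM in desert tumour 2 and at 0 in the other 4, a value that stands apart from the rest of its group by Dixon's test. It is 1 read, and with the other values tied at 0 a single read is enough for this, so the 5% rate of chance flags does not apply.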

How the results depend on the processing

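All 6 tested tuft cell genes kept their direction and their call under every alternative in which they were tested, and the 4 below the filter stayed on the same side of 0.05 in the exact permutation test. With a mean of at least 5 FPKM only Avil was left to test, so 1 member was called higher, and 2784 of all genes were higher and 3070 lower, since fewer genes were tested. With no filter 9 of the 10 members were called higher, all but Il25 (limma adjusted p = 0.119). Members called higher numbered 6 with each tumour left out in turn, and all genes called higher numbered 4893 to 5165 and called lower 4929 to 5146. With rescaling to TPM the median over all tested genes was -0.28, with 3769 higher and 6989 lower, and with quantile normalization it was -0.10. Among genes of the other tuft cell, cholinergic and type 2 lists Chrm1 and Slc44a1 lost their call, and Lta4h and Kctd12 gained one, in at least 1 alternative, and calls of cell type markers such as Epcam, Retnlg and Alas2 also changed; Il17ra, not called, reversed after rescaling to TPM (-0.065). The labels do not say that tumour numbers pair the groups, and deviations of same-numbered tumours correlated at -0.074 to 0.076; with the number as a replicate block 6 members were still called higher, and 4958 genes were higher and 4967 lower. Depth limits Il25, Chat, Gnat3 and Gfi1b, which rest on 6, 21, 97 and 54 reads over the inflamed tumours.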

Other observations

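Within the span of Dclk1, on the other strand, the predicted gene Gm21954 was at 4.49 FPKM in inflamed tumour 3 and 1.29 FPKM in inflamed tumour 4, and at 0 in the other inflamed tumours and in all 5 desert tumours. These are the inflamed tumours with the highest Dclk1 values, and the treatment of overlapping reads is not given in the sources used here. Ffar3, a receptor for short-chain fatty acids placed in the chemosensory list, had a direction opposite to that of the 5 tested genes of that list: it ranged over 0 to 0.142 FPKM in inflamed tumours, against 0.881, 0.732, 1.04, 0.142 and 0.399 FPKM in desert tumours 1 to 5. It lay below the filter, and was lower in inflamed tumours when no filter was set. Both genes were chosen after their values were seen.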
